A study of Mus musculus with 24 samples.

Results

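The zinc finger genes described here are the members of the numbered mouse series Zfp700 to Zfp999 that were counted in the amygdala of both DBA and BL6 mice. A member is a row of the deposited RNA count table with such a symbol and at least 10 counts in each strain over all nuclei. Of 125 rows with these symbols 115 qualified, out of 34039 genes in the table and 22155 genes that reached 10 counts in each strain. The tissue was the amygdala of adult males, 10 to 16 weeks old, of the inbred strains DBA and BL6, with about 2 animals pooled for each library. Single-nucleus RNA sequencing gave 2 DBA and 2 BL6 libraries, and single-nucleus ATAC sequencing, which counts accessible DNA, gave 2 DBA and 2 BL6 libraries from the same strains. The labels name no treatment, and strain is the one factor that separates the groups. Nuclei for RNA were sorted to about 75% neurons and 25% other cells on the neuronal protein NeuN, whereas the ATAC nuclei were collected with the dye 7-AAD and no neuronal marker.

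Most genes of this series encode C2H2 zinc finger proteins, and many also carry a KRAB domain. KRAB zinc finger proteins bind chosen DNA sequences, often within retroelements, and recruit the corepressor Trim28, also called KAP1. Trim28 brings the histone methyltransferase Setdb1, which lays down the silencing mark H3K9me3. The genes arose by repeated local duplication, lie in clusters on several mouse chromosomes, and differ widely between inbred strains and species.

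The RNA libraries held 32133813 and 50637086 counts in DBA and 66304405 and 30693629 counts in BL6. Neurons made up 54.1% and 69.9% of the nuclei of the DBA libraries and 63.4% and 47.0% of those of the BL6 libraries. The deposited table sums counts over 22 cell types named by the authors, of which 20 had at least 10 nuclei and 50000 counts in every library and were tested. The names went with the markers examined: Csf1r averaged 1209 CPM (counts per 1000000 counts of a library or cell type) in NN-MGC, the microglia, and at most 16.5 CPM in every other type, and Mog averaged 1058 CPM in NN-ODC, the oligodendrocytes. In NN-Endo-VLMC the endothelial markers Cldn5 and Flt1 were at 0 in all 4 libraries, so that type is called by its deposited name only. Rbfox3, which encodes NeuN, averaged 164 to 513 CPM over the neuronal types and 14.1 to 57.0 CPM over the non-neuronal types tested. The source of the Rbfox3 counts in non-neuronal types was not tested. The p-values below measure the spread between libraries, each a pool of animals. In sums over all nuclei, fewer cells that use a gene and less RNA per cell cannot be told apart.

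The members were mostly expressed at low levels. Their mean level over all nuclei ran from 0.126 to 141 CPM with a median of 9.54 CPM, and 56 of the 115 stood at 10 CPM or more, 7 at 50 CPM or more and 11 under 1 CPM. Zfp950 had the most counts, with 125 and 122 CPM in the DBA libraries and 162 and 155 CPM in the BL6 libraries. Zfp704 followed with 137 and 150 CPM in DBA and 135 and 121 CPM in BL6. Zfp799, Zfp949, Zfp710 and Zfp827, whose human counterpart recruits a chromatin remodelling complex to telomeres, averaged 76.2, 70.9, 65.1 and 63.7 CPM over the 4 libraries. Long genes collect more nuclear reads, and per kilobase of gene span the order was different: Zfp799 stood at 5.14, Zfp830 at 3.90, Zfp771 at 3.74, Zfp941 at 3.49 and Zfp949 at 3.08 CPM per kilobase, against 1.62 for Zfp950 and 0.74 for Zfp704.

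Together the members took a similar share of the RNA in both strains, from 0.184% to 0.196% of all counts in each library. Their summed level was 1838 and 1901 CPM in DBA and 1958 and 1914 CPM in BL6. By cell type the sum was highest in microglia, at 3194 and 3402 CPM in DBA and 3623 and 3548 CPM in BL6. Zfp710 alone supplied a large part of the microglial sum, which was 2540 ± 152 CPM without it (SD, n = 4 libraries). The 14 neuronal types averaged between 1571 CPM in Exc-Tafa1 and 1947 CPM in Exc-Vwa5b1. The other non-neuronal types lay between 1953 ± 126 CPM in the astrocytes, NN-Astro, which did not differ from Exc-Vwa5b1 beyond their spread, and 2437 ± 92.3 CPM in NN-VLMC, with 2369 ± 29.5 CPM in the oligodendrocyte precursors, NN-OPC.

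Neuronal nuclei, the summed excitatory and inhibitory types, were compared with the summed non-neuronal types of the same libraries. A gene is said to be called when edgeR's quasi-likelihood test gave a Benjamini-Hochberg adjusted p under 0.05 over all genes tested. Of 109 members tested 72 were called, 19 higher and 53 lower in neurons, and of these 5 were higher and 20 lower by at least 2-fold. Over all genes 73.4% were called in this comparison, 36.7% in each direction, so the share of members called, 66.1%, was below that of all genes. The median log2 difference of the members tested was -0.31.

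Zfp831 differed most toward neurons, with 48.0, 53.9, 50.0 and 52.7 CPM in neuronal nuclei (DBA libraries 2 and 3, then BL6 libraries 2 and 3) against 2.04, 5.09, 4.85 and 4.76 CPM in non-neuronal nuclei. The log2 difference was 3.74 ± 0.16 (SE, adjusted p 3.13e-07). Zfp941 had 51.6, 61.7, 74.8 and 59.0 CPM in neuronal and 7.19, 11.6, 20.5 and 11.1 CPM in non-neuronal nuclei, a log2 difference of 2.46 ± 0.13 (adjusted p 1.25e-06). Neither gene's neuronal values overlapped its non-neuronal ones. The genes were chosen by this comparison on the same libraries, so a lack of overlap, here and in the next paragraph, is not separate support. Zfp810, Zfp711, an X-linked gene whose human counterpart is mutated in intellectual disability, and Zfp799 were higher in neurons by 1.15 ± 0.08, 0.95 ± 0.08 and 0.83 ± 0.07 on the log2 scale.

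In the opposite direction, Zfp808 had 3.25, 2.18, 2.40 and 2.53 CPM in neuronal nuclei against 19.7, 14.4, 19.8 and 18.0 CPM in non-neuronal nuclei, a log2 difference of -2.67 ± 0.12 (adjusted p 2.86e-07). Zfp710 had 36.9, 39.9, 44.1 and 44.9 CPM in neuronal and 131, 143, 168 and 169 CPM in non-neuronal nuclei, a log2 difference of -1.74 ± 0.05 (adjusted p 5.17e-08). Zfp809, which silences murine leukaemia type proviruses in mouse embryonic stem cells, averaged 12.5 ± 0.828 CPM in neuronal and 39.9 ± 2.15 CPM in non-neuronal nuclei (SD, n = 4), a log2 difference of -1.53 ± 0.09. Zfp934 and Zfp866 had log2 differences of -1.30 ± 0.10 and -1.25 ± 0.09. Neuronal and non-neuronal values did not overlap for Zfp808, Zfp710 and Zfp809, but they did for Zfp934, whose strains differ.

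**Figure D1:**
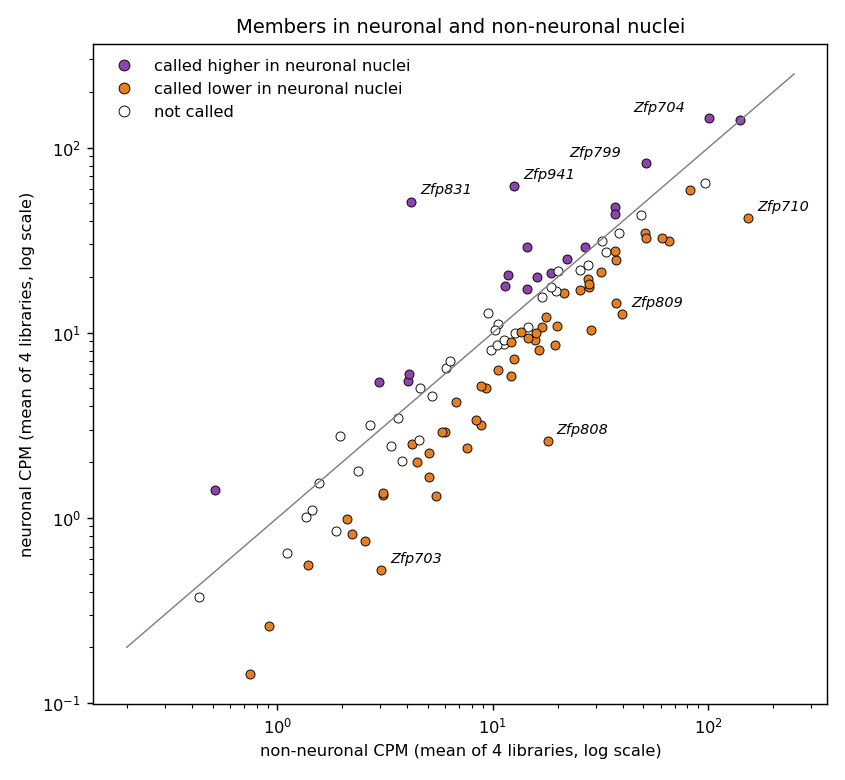
Mean CPM of each member tested in neuronal nuclei (vertical, log scale) against non-neuronal nuclei (horizontal, log scale), each point a gene averaged over 4 libraries, with filled points called and the grey line marking equal levels. Zfp831 and Zfp941 lie far above the line, and Zfp808 and Zfp710 far below it.

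Levels by cell type were uneven within each class. Zfp710 averaged 902 ± 53.8 CPM in microglia (839.9 and 893.6 in DBA, 903.7 and 970.9 in BL6), 19.4 times its median over the types tested of 46.6 CPM, and the next level was 113 ± 18.5 CPM in astrocytes. Oligodendrocytes, at 38.6 ± 7.57 CPM, did not differ from the neuronal types beyond their spread. In microglia Zfp710 did not pass the strain test (log2 difference -0.06 ± 0.12, adjusted p 0.891).

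Zfp831 was high in some neuronal types and low in others. It stood at 73.1 ± 2.65 CPM in Exc-Vwa5b1, 65.5 ± 4.14 CPM in Inh-Tshz1, 64.0 ± 5.07 CPM in Exc-Abi3bp and 62.3 ± 1.08 CPM in Exc-Tafa1, and it averaged 40.7 to 61.4 CPM in Inh-Drd2, Neuronal-Aldoa-Cst3, Inh-Zfhx3, Exc-Ebf2 and Inh-Nxph2. The Inh-Drd2 mean leaned on DBA library 3, at 110 CPM from 16 counts, against 41.8 to 46.8 CPM in the other libraries. It was at 5.71 ± 3.10 CPM in Inh-Lypd6b, 5.18 ± 1.10 CPM in Inh-Lamp5, 5.09 ± 0.994 CPM in Inh-Sst, 3.63 ± 4.38 CPM in Exc-Tfap2c and 0.562 ± 0.698 CPM in Inh-Htr3a. These low neuronal types lay in the range of the astrocytes, at 4.36 ± 2.08 CPM, and microglia, at 4.26 ± 3.43 CPM, and neighbours within that low range did not differ beyond their spread. Exc-Tafa1 and Exc-Abi3bp could not be ordered against Inh-Tshz1 beyond theirs.

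Zfp808 averaged 25.6 ± 4.19 CPM in oligodendrocyte precursors, 28.7 ± 5.96 CPM in microglia and 15.4 ± 4.35 CPM in astrocytes, against a median over types of 3.64 CPM. NN-VLMC, at 34.5 ± 23.9 CPM, ran from 0 to 54.5 CPM over its libraries. Oligodendrocytes themselves, at 5.95 ± 2.21 CPM, were in the range of the inhibitory types Inh-Drd2, at 8.27 ± 3.83 CPM, and Inh-Lypd6b, at 6.94 ± 2.63 CPM. Precursors and microglia overlapped. Zfp740 in oligodendrocytes, at 109 ± 11.8 CPM against a median of 34.8 CPM, and Zfp870 in astrocytes, at 7.88 ± 2.09 CPM against 1.62 CPM, had the largest ratio in those types among members with 100 or more counts there.

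**Figure D2:**
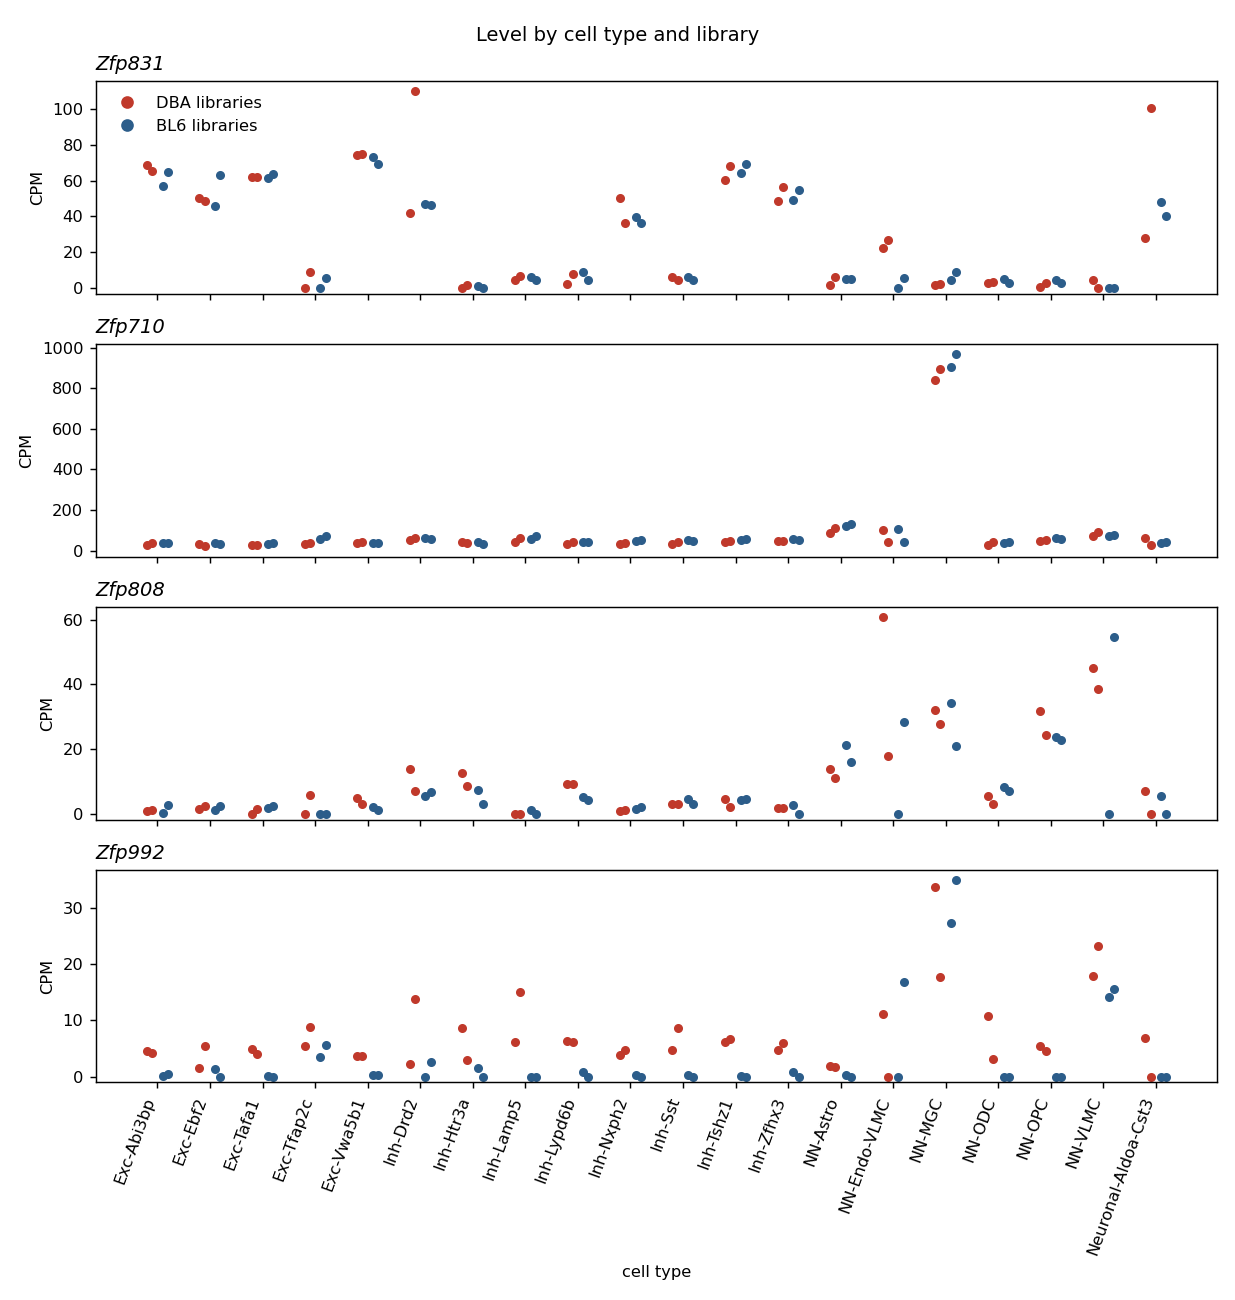
CPM of Zfp831, Zfp710, Zfp808 and Zfp992 in each cell type tested, with a point per library and DBA left of BL6. Zfp831 is high in most neuronal types and averages 5.71 CPM or less in 5 of them, Zfp710 reaches 902 CPM on average in microglia, and Zfp992 is near 0 in most types of BL6 but not in its microglia.

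Between excitatory and inhibitory nuclei the members differed less. Of 107 tested 24 were called, 4 higher and 20 lower in excitatory nuclei, against 36% of all genes, 18.4% higher and 17.5% lower, and none differed 2-fold. Zfp831 had 65.2, 64.8, 62.5 and 64.6 CPM in excitatory and 35.5, 43.1, 38.4 and 40.3 CPM in inhibitory nuclei, a log2 difference of 0.75 ± 0.05 (adjusted p 2.15e-07). Zfp704 averaged 164 ± 15.1 CPM in excitatory and 127 ± 12.2 CPM in inhibitory nuclei, a log2 difference of 0.41 ± 0.04 (adjusted p 4.77e-06). Zfp810 and Zfp821 were higher by 0.20 ± 0.06 and 0.18 ± 0.05. Among those lower, Zfp808, Zfp946, Zfp976, Zfp710 and Zfp983 had log2 differences of -0.77 ± 0.22, -0.63 ± 0.09, -0.55 ± 0.09, -0.40 ± 0.05 and -0.39 ± 0.07. With DESeq2 in place of edgeR 13 members were called, and Zfp808, Zfp810 and Zfp821 were no longer among them, at adjusted p 0.0661, 0.12 and 0.0748.

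DBA and BL6 were then compared over all nuclei. Of 113 members tested 16 were called, 6 higher and 10 lower in DBA, which is 14.2% of those tested. Over all genes 4.88% were called, 1.71% higher and 3.18% lower. Another 228 genes of the Zfp series, numbered below 700, were tested in the same fit and 14 were called, 1 higher and 13 lower, or 6.14%. Without DBA library 2 or without DBA library 3 fewer members were called, and fewer of all genes as well. The 6 members Zfp775, Zfp934, Zfp949, Zfp963, Zfp982 and Zfp992 kept their call under all 11 alternatives tried.

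Zfp949, at chr9:88548020-88571086 of mm10, was the most abundant gene called. It had 112 and 99.7 CPM in DBA against 36.3 and 35.8 CPM in BL6, a log2 difference of 1.60 ± 0.10 (adjusted p 0.000304). Zfp992 had 5.35 and 4.996 CPM in DBA against 0.814 and 1.34 CPM in BL6, a difference of 2.36 ± 0.29 (adjusted p 0.00567). Each gene's lowest DBA value lay above its highest BL6 value. The calls were made on these same libraries, so a lack of overlap in called genes, here and below, is not separate support. Zfp947 had 4.95 and 5.81 CPM in DBA and 1.13 and 0.554 CPM in BL6 (2.65 ± 0.35, adjusted p 0.0077), and Zfp936 had 2.21 and 2.09 CPM in DBA and 0.392 and 0.195 CPM in BL6 (2.80 ± 0.38, adjusted p 0.00786). Both lost the call without DBA library 3, at adjusted p 0.0688 and 0.0583.

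Zfp976 had 15.7 and 14.9 CPM in DBA against 8.66 and 9.48 CPM in BL6 (0.80 ± 0.14, adjusted p 0.0243), again without overlap. Zfp981 rested on few reads, 26 and 25 counts in DBA and 7 and 3 counts in BL6 (2.64 ± 0.50, adjusted p 0.0304). Its annotated span overlaps that of Zfp993, which had 130 counts in DBA and 42 in BL6, and that of the noncoding RNA 1700095A21Rik, with 300 and 28. Zfp981 lost its call when any 1 library was left out, and Zfp976 lost it without DBA library 2, DBA library 3 or BL6 library 2.

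Of the members lower in DBA, Zfp982 differed most, with 0.373 and 0.355 CPM in DBA against 4.93 and 5.96 CPM in BL6, a log2 difference of -3.84 ± 0.28 (adjusted p 0.000524). Zfp963 had 0.965 and 0.671 CPM in DBA against 8.87 and 8.63 CPM in BL6 (-3.39 ± 0.26, adjusted p 0.000635). Zfp934 had 4.70 and 3.59 CPM in DBA against 22.7 and 27.0 CPM in BL6 (-2.54 ± 0.18, adjusted p 0.000492). Each of these genes had 12 or more counts in either DBA library, and the strains did not overlap. The rule itself asks for at least 10 counts in DBA, so a member without DBA counts could not appear. Zfp775 had 1.56 and 1.44 CPM in DBA and 6.67 and 7.95 CPM in BL6 (-2.23 ± 0.22, adjusted p 0.00215), with a noncoding RNA, Gm38804, in its span that had 326 counts in DBA and 612 in BL6.

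Smaller differences among the more abundant genes were also called. Zfp933 had 22.1 and 27.6 CPM in DBA and 45.5 and 45.8 CPM in BL6 (-0.83 ± 0.13, adjusted p 0.0163), and Zfp961 had 26.0 and 24.9 CPM in DBA and 38.5 and 37.2 CPM in BL6 (-0.52 ± 0.11, adjusted p 0.0419). Zfp943 averaged 15.9 ± 2.36 CPM in DBA and 29.3 ± 2.05 CPM in BL6, and Zfp866 13.8 ± 0.522 CPM in DBA and 24.9 ± 0.306 CPM in BL6 (SD, n = 2 each). The span of Zfp943 overlaps a pseudogene, Gm7805, with 60 counts in DBA and 0 in BL6. The rarer Zfp970 and Zfp984 averaged 1.39 ± 0.0627 and 0.485 ± 0.239 CPM in DBA against 3.54 ± 0.436 and 1.83 ± 0.0997 CPM in BL6. None of these 6 overlapped between strains, and all 6 lost the call without DBA library 2. Zfp961 had the highest adjusted p of the 6 over the alternatives, 0.274.

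**Figure D3:**
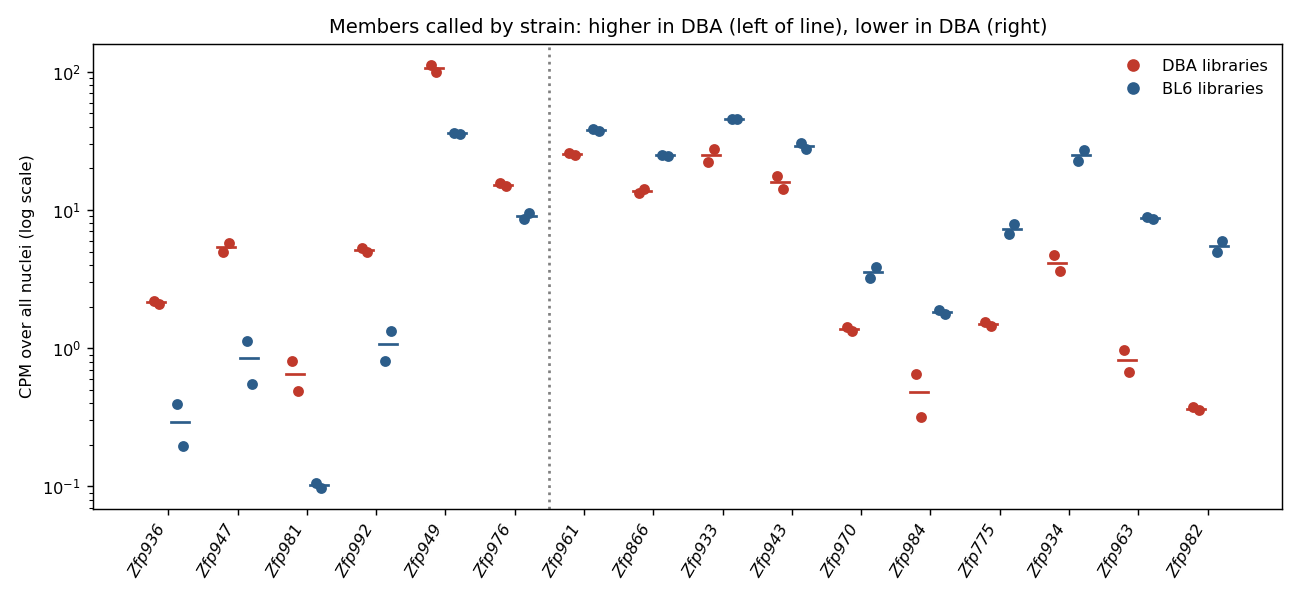
CPM over all nuclei (vertical, log scale) of the 16 members called by strain, with a point per library, a bar at the mean and DBA left of BL6 for each gene. In every gene the DBA libraries lie wholly above or wholly below the BL6 libraries, and Zfp982 is the furthest apart. The genes were called on these same libraries, so the lack of overlap is not separate support.

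The rule requires 10 counts in each strain and so leaves out genes with reads in a single strain. Zfp783 had 1925 counts in DBA and 0 in BL6, and Zfp939 had 1756 in DBA and 0 in BL6. Zfp965 had 0 counts in DBA and 44 in BL6. Just below the limit were Zfp988, with 16 counts in DBA and 9 in BL6, and Zfp986, with 14 in DBA and 5 in BL6, and just inside it were Zfp981, with 10 counts in BL6, and Zfp819, with 10 in DBA and 13 in BL6. Whether the strains were counted with the same gene names is not given in the sources used here, so such rows were kept out of the main tests. With every gene of the table entered, edgeR called 6073 of 25329 genes over all nuclei, 4633 higher and 1440 lower in DBA. In the main fit it called 1033 of 21161, 361 higher and 672 lower.

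Genes of the proteins through which KRAB zinc fingers act were examined in the same fit. A corepressor list held Trim28, Setdb1, their partners and other H3K9 methylation genes. Of its 31 genes 0 were called by edgeR or DESeq2 over all nuclei, against 4.88% of all genes with edgeR. An unadjusted p under 0.05 with edgeR was found for 3 of the 31, against 3500 of all 21161 genes tested. In excitatory nuclei 1 of 29 was called, against 9.65% of all genes. It was the histone deacetylase gene Hdac1, lower in DBA by a log2 difference of -0.56 ± 0.15 (adjusted p 0.0278). Over the cell types 516 tests gave 4 calls, all lower in DBA, or 0.775%, against 5.78% over all genes. These were Hdac1 in Inh-Nxph2 and NN-Astro, Atf7ip, a partner of Setdb1, in Inh-Nxph2, and the chromatin remodeller gene Chd3 in NN-ODC (-1.39 ± 0.33, adjusted p 0.00436), named after their values were seen. Trim28 averaged 17.6 ± 0.896 CPM in DBA and 17.5 ± 1.98 CPM in BL6 (SD, n = 2 each, adjusted p 0.893). Setdb1 averaged 87.4 ± 3.41 CPM in DBA and 79.4 ± 0.0948 CPM in BL6 (adjusted p 0.384).

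Split by class, 20 of 105 members were called in excitatory nuclei, 8 higher and 12 lower in DBA, against 9.65% of all genes, 3.52% higher and 6.13% lower. In inhibitory nuclei 20 of 105 were called, 9 higher and 11 lower, against 8.62% of all genes, 3.24% higher and 5.38% lower, and in non-neuronal nuclei 11 of 104, 2 higher and 9 lower, against 8.25%, 3.29% higher and 4.96% lower. The excitatory and inhibitory calls shared 17 members, every one in the same direction, and 9 members were called in all 3 classes. These were Zfp775, Zfp933, Zfp934, Zfp943, Zfp947, Zfp949, Zfp961, Zfp963 and Zfp982. The classes come from the same libraries, so shared calls are not independent repeats. The overlap between classes was not counted over all genes. DESeq2 called 13 members in inhibitory nuclei, and 1214 of 18013 genes. Without DBA library 2 or without DBA library 3 edgeR called fewer members in non-neuronal nuclei, and fewer of all genes as well.

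Another 9 members were called in a class but not over all nuclei. Zfp975, Zfp960 and Zfp993 were higher and Zfp950 lower in DBA in both neuronal classes, whereas Zfp738, Zfp956 and Zfp995 were lower in excitatory nuclei and Zfp758 was higher and Zfp983 lower in inhibitory nuclei. The annotated span of Zfp956 overlaps that of Zfp783, with 1925 counts in DBA and 0 in BL6. That of Zfp950 overlaps Grk5, with 5465 and 5053. Zfp993 had 130 counts in DBA and 42 in BL6 over all nuclei. Its span overlaps Zfp981, with 51 and 10, 1700095A21Rik, with 300 and 28, Gm21411, with 6 and 11, and others. Whether reads from the overlaps affected these calls was not tested. Of the 9 members Zfp993 differed most, by 2.98 ± 0.76 in excitatory and 4.83 ± 0.66 in inhibitory nuclei on the log2 scale. Zfp960 differed by 1.23 ± 0.35 and 1.07 ± 0.29. Zfp950, the member with the most counts, differed by -0.34 ± 0.10 and -0.30 ± 0.08 and lost both calls with DESeq2, without DBA library 3 and without either BL6 library. The calls of Zfp960 and Zfp975 were also lost with DESeq2 in both classes, as was that of Zfp993 in excitatory nuclei, which was lost too without DBA library 2 or BL6 library 2. Its log2 difference in excitatory nuclei ran from 1.59 to 4.97 over the alternatives. In inhibitory nuclei Zfp993 kept its call under all 11 alternatives, with differences of 4.43 to 7.66. Zfp758 lost its call with DESeq2 and without any 1 library, and Zfp983 with DESeq2, without DBA library 3 and without BL6 library 3. Zfp738 lost it with DESeq2, without DBA library 2 and without BL6 library 2, and Zfp956 without DBA library 3 and without BL6 library 3.

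Across the 20 cell types 1185 tests of a member in a type gave 119 calls, 43 higher and 76 lower in DBA. That is 10.0% of the tests, against 5.78% over all genes, 2.17% higher and 3.6% lower. The calls fell on 26 members, none of which was called in both directions, and 11 of the 26 were called in 5 or more types. Without BL6 library 2 the calls numbered 71, and DESeq2 made 59. Exc-Vwa5b1 had the most, with 19 of 92 members against 10.6% of all genes, and the small types Exc-Tfap2c, NN-VLMC and Neuronal-Aldoa-Cst3 had 0 with edgeR, where 3, 3 and 2 members had an unadjusted p under 0.05. Of all genes 0.974%, 0.565% and 0.673% were called in these 3 types. An unadjusted p under 0.05 was found there for 466 of 4827, 303 of 3892 and 653 of 6835 genes.

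Zfp949 was higher in DBA in all 20 types and called in 17, by log2 differences of 0.98 to 3.28. Zfp947 and Zfp992 were called in 6 and 7 of the 8 types in which each was tested. Zfp934 was lower in all 16 types tested and called in 14, Zfp963 in 9 of 10 and Zfp982 in 8 of 8. Types of 1 library share its animals and preparation, so these are not independent repeats. Zfp800 was called higher in Inh-Tshz1 alone (0.60 ± 0.15, adjusted p 0.0087). Zfp932, which represses endogenous retroviruses in mouse embryonic stem cells, was called lower in astrocytes alone (-0.64 ± 0.18, adjusted p 0.0331).

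**Figure D4:**
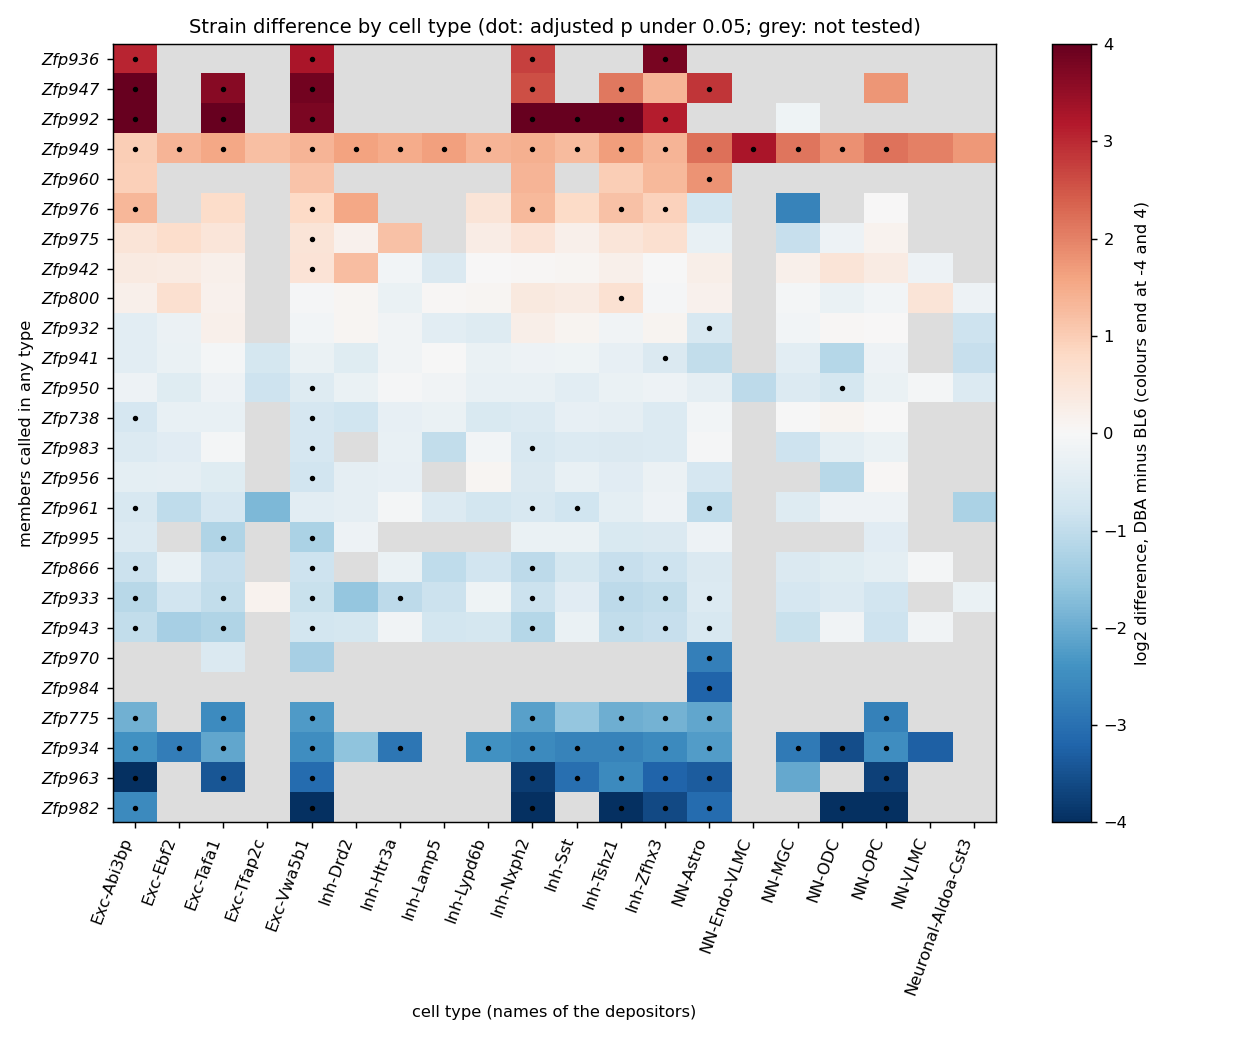
Log2 difference between strains, DBA minus BL6, of the 26 members called in any cell type (rows) across the 20 types tested (columns), with black dots for calls and grey for genes not tested. Zfp949 is red in every type, Zfp934 is blue in every type tested, and Zfp992 is red in neuronal types but pale in microglia.

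Whether a strain difference itself differed between neuronal and non-neuronal nuclei was tested as an interaction with the library as a block. Of 109 members 4 were called, 3.67%, 3 positive and 1 negative, against 2.46% of all genes, 0.984% positive and 1.48% negative. Zfp976 had 18.2 and 16.1 CPM in DBA neurons against 8.30 and 8.30 CPM in BL6 neurons, but 7.19 and 7.98 CPM in DBA non-neuronal nuclei against 10.6 and 12.3 CPM in BL6 ones. The difference outside neurons did not pass the strain test (-0.48 ± 0.22, adjusted p 0.255). In microglia alone Zfp976 had 5.07 and 0 CPM in DBA and 18.0 and 19.5 CPM in BL6, from at most 21 counts a library, and did not pass the test (adjusted p 0.053).

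Zfp992 had 4.79 and 5.19 CPM in DBA neurons against 0.332 and 0.239 CPM in BL6 neurons, but 7.19 and 3.99 CPM in DBA non-neuronal nuclei against 3.17 and 3.90 CPM in BL6 ones. There the lowest DBA value lay just above the highest BL6 value, and the difference did not pass the test (0.78 ± 0.36, adjusted p 0.246). Over all nuclei Zfp992 had 54 and 41 counts in BL6, most of them in microglia. The microglial level was 33.8 and 17.8 CPM in DBA, from 20 and 9 counts, and 27.4 and 35.1 CPM in BL6, from 32 and 27 counts, and did not pass the strain test (log2 difference -0.18 ± 0.39, adjusted p 0.904). In NN-VLMC it had 17.9 and 23.2 CPM in DBA, from 4 and 3 counts, and 14.3 and 15.6 CPM in BL6, from 1 and 6 counts, too few to order the strains. All nuclei other than microglia had 4.82 and 4.87 CPM in DBA, from 152 and 244 counts, and 0.338 and 0.468 CPM in BL6, from 22 and 14 counts. In astrocytes, oligodendrocytes and their precursors together there were 27 and 17 counts in DBA and 1 and 0 counts in BL6.

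Zfp949 was higher in DBA in both classes, with 95.9 and 92.2 CPM in DBA neurons against 36.3 and 34.9 CPM in BL6 neurons, and 165 and 144 CPM in DBA non-neuronal nuclei against 37.6 and 37.0 CPM in BL6 ones. The interaction was -0.74 ± 0.11, the strain difference being larger outside neurons. Zfp975 had 24.8 and 25.9 CPM in DBA neurons against 18.3 and 16.99 CPM in BL6 neurons, and 18.5 and 18.3 CPM in DBA non-neuronal nuclei against 23.1 and 20.8 CPM in BL6 ones. Without DBA library 2 or without DBA library 3 a single member stayed called, which was Zfp992 at adjusted p 0.0269 in the first case and Zfp976 at adjusted p 0.0431 in the second. Without BL6 library 3 the count was 7.

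By position, 69 members lay in 14 chromosome clusters, taken as 3 or more members with under 500 kb between neighbouring starts. Chromosomes 7 and 17 carried the most members, 24 and 21. In clusters 13 of 67 members tested were called by strain over all nuclei, or 19.4%, 5 higher and 8 lower in DBA, and outside clusters 3 of 46, or 6.52%, against the same 4.88% of all genes. The median size of the log2 difference was 0.33 in clusters and 0.16 outside them, and the difference between members in and outside clusters was not tested.

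The cluster at chr4:146449030-146991471 held Zfp992, Zfp981 and Zfp993, all with positive differences and the first 2 of them called. Its summed level was 7.87 and 6.97 CPM in DBA against 1.21 and 2.18 CPM in BL6. In the neighbouring cluster at chr4:147132093-147849126 Zfp982, Zfp984 and Zfp933 were called lower, whereas Zfp979 and Zfp991 had positive differences that did not pass the test (1.32 ± 0.63 and 0.44 ± 0.36). Most of its level was that of Zfp933, with sums of 26.2 and 30.1 CPM in DBA against 54.3 and 55.2 CPM in BL6. The cluster sums of the strains did not overlap in either. With under 1 Mb allowed between neighbouring starts, 78 members lay in 13 clusters. These neighbouring chromosome 4 clusters then joined into a single one with calls in both directions.

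At chr7:42579397-43618279 all 6 members tested had positive differences, with Zfp936 and Zfp976 called, and at chr8:69209018-69774911 the neighbours Zfp963 and Zfp866 were called lower. The largest cluster, with 13 members at chr17:21565816-22867309, had 1 member called each way, Zfp947 higher and Zfp943 lower, and sums of 173 and 161 CPM in DBA and 179 and 180 CPM in BL6. In the cluster on chromosome 13 all 4 differences were negative and 0 were called by edgeR (Zfp738 had the smallest p, adjusted 0.187 and unadjusted 0.0203). Zfp970 on chromosome 2 and Zfp961 at chr8:71882068-71970333 were the single calls of their clusters, and the remaining clusters had no call by edgeR. In those the smallest p belonged to Zfp956 (adjusted 0.117), Zfp772 (0.566), Zfp771 (0.826), Zfp810 (0.878), Zfp938 (0.364) and Zfp952 (0.613). In the cluster of Zfp786, Zfp956, Zfp777 and Zfp746 on chromosome 6 all 4 members were called higher in neurons, against 36.7% of all genes. Zfp746, known as PARIS, is a parkin substrate that represses PGC-1alpha, and its log2 difference was 0.26 ± 0.08, a call lost without BL6 library 2 (adjusted p 0.063).

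**Figure D5:**
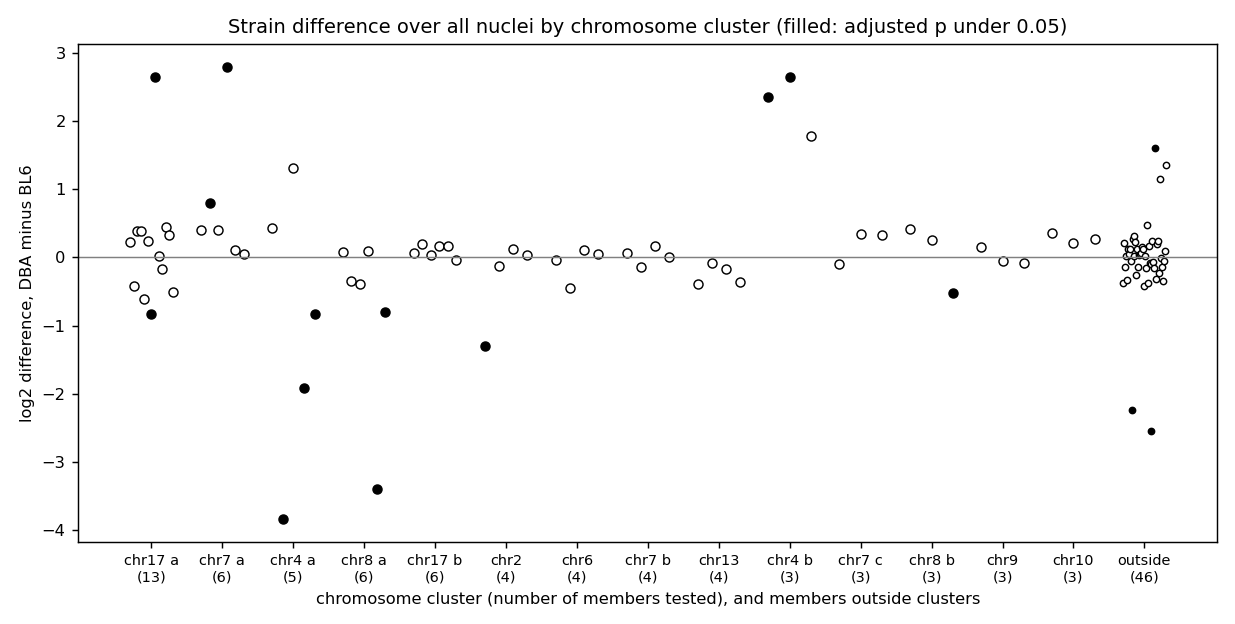
Log2 difference over all nuclei, DBA minus BL6, of each member tested, by chromosome cluster from the cluster with most members to the smallest and then for members outside clusters, with filled points called. The members called in the 2 clusters of chromosome 4 lie on opposite sides of 0, and most points of the other clusters lie near 0.

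Neighbouring members can be near copies of each other, which matters for how reads are assigned. RefSeq promoters of GRCm38.p6, 250 bases before and 50 after a gene's start, were at hand for 101 members. In 19 of them the closest promoter of another member was at least 80% identical, and in 8 at least 90%; the median identity to the closest was 54.3%. Zfp966 and Zfp967 had the same 300 bases, and Zfp968 and Zfp973 differed by 1 edit while their levels were 1.07 ± 0.188 and 10.4 ± 0.857 CPM, or 0.0838 and 0.988 CPM per kilobase. How reads that match several copies were counted is not given in the sources used here, so the levels of such copies are uncertain. Of the 16 members called by strain, 5 had a closest promoter at 80% identity or more, and Zfp934 and Zfp992 had no promoter to compare.

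The promoters of Zfp970, Zfp966 and Zfp971 are shown because Zfp970 differed between strains in RNA and in accessibility while its near copies are almost the same letters. They lie at chr2:177464492-177464791 on the plus strand, chr2:175931051-175931350 on the minus strand and chr2:178023034-178023333 on the plus strand. Capitals mark bases that are mismatched or inserted against Zfp966 in the first and against Zfp970 in the other 2.
Zfp970: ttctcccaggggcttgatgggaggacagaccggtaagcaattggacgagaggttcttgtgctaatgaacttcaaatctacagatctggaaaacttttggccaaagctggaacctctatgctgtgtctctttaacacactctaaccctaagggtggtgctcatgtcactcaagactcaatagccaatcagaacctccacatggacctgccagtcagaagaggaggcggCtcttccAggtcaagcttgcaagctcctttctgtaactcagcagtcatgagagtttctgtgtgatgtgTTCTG
Zfp966: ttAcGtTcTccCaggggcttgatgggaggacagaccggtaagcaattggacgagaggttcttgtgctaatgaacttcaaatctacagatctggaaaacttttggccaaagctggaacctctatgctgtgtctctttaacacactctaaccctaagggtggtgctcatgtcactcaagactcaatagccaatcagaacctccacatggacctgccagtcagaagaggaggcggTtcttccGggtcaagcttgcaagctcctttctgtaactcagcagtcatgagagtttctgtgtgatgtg
Zfp971: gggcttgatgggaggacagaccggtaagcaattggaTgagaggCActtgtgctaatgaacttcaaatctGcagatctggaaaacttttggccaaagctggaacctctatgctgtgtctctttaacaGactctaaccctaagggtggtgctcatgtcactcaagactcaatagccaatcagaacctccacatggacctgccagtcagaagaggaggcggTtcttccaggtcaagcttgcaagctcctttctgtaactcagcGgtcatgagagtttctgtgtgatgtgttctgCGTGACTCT
Zfp970 was 96.0% identical to Zfp966, with 12 edits in all, and 91.7% to Zfp971, with 25. Zfp970 RNA was lower in DBA, as given above, whereas Zfp966 had 1.62 and 0.829 CPM in DBA and 1.25 and 1.24 CPM in BL6, and Zfp971 had 10.6 and 10.9998 CPM in DBA and 9.80 and 10.6 CPM in BL6, both overlapping between strains.

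Accessibility was read from ATAC peaks lying at most 2 kb from a member's ends, which 95 members had. Nuclei of these libraries were 97.0% to 98.2% neurons by the deposited names. Of 138 such peaks 15 were called, 9 more and 6 less accessible in DBA, or 10.9%, against 6.44% of all peaks, 3.21% more and 3.23% less accessible. They belonged to 14 members, and 9 of the 15 peaks held a listed start. Without BL6 library 2 the peaks called numbered 7 and without BL6 library 3 they numbered 8, and DESeq2 called 9.

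The peak chr2:177464636-177464979 over the start of Zfp970 had 0 and 0 counts in DBA against 73 and 84 counts in BL6. With a floor of 3 counts over the DBA libraries it was at least 48.3-fold lower in DBA (counting error only, adjusted p 8.1e-29). It overlaps the later part of the promoter printed above. Whether DBA reads can be placed on that sequence was not tested.

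A peak at chr17:22225009-22226079 over the start of Zfp994 had 7.24 and 7.03 CPM in DBA against 16.2 and 16.6 CPM in BL6, a log2 difference of -1.15 ± 0.11 (adjusted p 5.39e-25). Its RNA had 9.74 and 9.12 CPM in DBA and 10.3 and 8.86 CPM in BL6, which overlapped (adjusted p 0.976). A peak at chr17:21707047-21708161 over the start of Zfp760 had 16.0 and 15.9 CPM in DBA and 11.6 and 11.4 CPM in BL6 (0.52 ± 0.10, adjusted p 2.01e-05). These promoters, at chr17:22225565-22225864 on the minus strand and chr17:21707491-21707790 on the plus strand, are shown with that of Zfp949, at chr9:88547770-88548069 on the plus strand, the member called by RNA in the most types. Capitals mark the letters CCAAT, or ATTGG where the motif lies on the other strand.
Zfp994: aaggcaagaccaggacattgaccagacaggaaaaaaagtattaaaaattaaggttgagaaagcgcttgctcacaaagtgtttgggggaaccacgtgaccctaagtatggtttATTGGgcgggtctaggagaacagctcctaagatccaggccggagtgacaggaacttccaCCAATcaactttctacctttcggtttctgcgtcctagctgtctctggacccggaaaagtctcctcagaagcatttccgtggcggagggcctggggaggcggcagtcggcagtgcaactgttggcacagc
Zfp760: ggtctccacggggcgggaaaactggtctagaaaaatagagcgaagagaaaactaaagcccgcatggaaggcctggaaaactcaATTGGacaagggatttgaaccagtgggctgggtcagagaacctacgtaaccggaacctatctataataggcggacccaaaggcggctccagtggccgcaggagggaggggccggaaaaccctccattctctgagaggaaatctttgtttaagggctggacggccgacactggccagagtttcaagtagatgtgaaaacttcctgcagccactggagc
Zfp949: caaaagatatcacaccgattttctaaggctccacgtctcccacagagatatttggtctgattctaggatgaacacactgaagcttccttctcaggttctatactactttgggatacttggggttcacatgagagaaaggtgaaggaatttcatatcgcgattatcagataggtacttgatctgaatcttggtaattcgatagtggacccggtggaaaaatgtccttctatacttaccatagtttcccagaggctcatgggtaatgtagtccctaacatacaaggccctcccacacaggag
Zfp994 has the motif on both strands, Zfp760 once, and no match was found in the window of Zfp949.

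Beside those of Zfp970 and Zfp994, peaks with small p were near Zfp960, Zfp788, Zfp957 and Zfp819. The peak chr17:17063276-17064626, across the lower-coordinate end of Zfp960, had 37.8 and 36.4 CPM in DBA against 15.6 and 16.3 CPM in BL6 (1.26 ± 0.10, adjusted p 6.89e-31). RNA of Zfp960 was at 4.23 and 3.04 CPM in DBA and 1.64 and 1.73 CPM in BL6, called in both neuronal classes but not over all nuclei (adjusted p 0.0642). Peaks near the higher-coordinate ends of Zfp788 and Zfp957 differed by -1.21 ± 0.15 and 0.83 ± 0.11, without a called RNA difference.

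Near the higher-coordinate end of Zfp819, a KRAB zinc finger gene of mouse pluripotent cells, a peak had 17 and 0 counts in DBA and 53 and 73 counts in BL6 (-2.72 ± 0.40), and this call was lost with DESeq2. Of all 95 members with a peak, 14 had a called one. Of the 16 members called by RNA over all nuclei 12 had a peak, and 2 had a called one. Zfp970 was lower in DBA in both assays, whereas near Zfp984 the peak was more accessible in DBA (1.15 ± 0.25) and the RNA lower. By class, edgeR called Zfp970 RNA in non-neuronal nuclei alone (-2.24 ± 0.36, adjusted p 0.00277). The ATAC nuclei were mostly neurons, so for Zfp970 the 2 assays read largely different cells. The peak near Zfp984 lost its call with DESeq2 and without BL6 library 2, at adjusted p up to 0.0857. Zfp975, higher in DBA neurons, had a called peak over a listed start at chr7:42691900-42693607 that was also higher (19.0 and 17.4 CPM in DBA, 14.5 and 14.8 CPM in BL6, 0.36 ± 0.10). This peak's call was lost without DBA library 2, BL6 library 2 or BL6 library 3, at adjusted p up to 0.466.

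Letters shared by the promoters were searched on both strands in the 101 members and in all 27025 genes of the RefSeq table. CCAAT was found in 67.3% of the members' promoters and in 37.9% of all promoters, and GGGCGG, the GC box, in 42.6% and 35.9%. TATAAA, the TATA box, was found in 2.97% of the members and 14.2% of all, ACTTCCGG in 4.95% and 4.0%, and TGACGTCA in 0 of 101 members and 1.88% of all. The median GC content was 52.7% for members and for all promoters, and the median number of CG pairs was 10 for members and 7 for all. These are descriptions of letters, and near copies among the members share theirs.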

How the data were processed

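The RNA and ATAC libraries of DBA and BL6 were analysed, 4 of each, and the 16 methylation samples of the series were not used here. The deposited tables hold whole-number counts, which the authors had added up per cell type and library. Per the submitters' processing notes, Cell Ranger 6.0.2 and Seurat 4.0.5 were used for RNA and Cell Ranger ATAC 2.0.0 and Seurat for ATAC, with the mm10 genome. Filters on nuclei, treatment of doublets and of reads matching several genes, and the peak caller are not given in the sources used here. Table columns name strain, assay and a library number, 2 or 3, whereas the labels number the samples of a strain 1 and 2, so a column's strain and assay are known but not which of the 2 samples it is. The sample entered for each column is a placeholder within its group, and no value depends on it.

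Counts were summed over all nuclei, classes or single types, and CPM is counts per 1000000 of that sum. Genes with 10 or more counts in each strain were tested with edgeR 4.0.16 in R 4.3.3 (TMM, filterByExpr minimum count 10, robust quasi-likelihood, Benjamini-Hochberg adjustment over all genes or peaks), called at adjusted p under 0.05. Class contrasts and the interaction had the library as a block. DESeq2 1.42.0, other scaling, no filter, every gene of the table, thinning to equal depth and leaving out each library were alternatives. Each test was also run on counts simulated from the means and dispersions of these data. Gene positions are RefSeq GRCm38.p6.

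The members and lists were chosen with earlier results of these data known. Named members are the 6 with the highest level, up to 10 called each way by strain, 3 each way called in most types, 5 each way per class contrast at 5 CPM or more, the largest type ratios, 3 each way by interaction, 4 peaks each way, the smallest p of each cluster, and members next to the count limit. Other genes named, such as Zfp993, Zfp995 or Zfp800, and the motifs and promoters shown were chosen after their values were seen. Intervals of counts and floors cover counting error only.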

Additional observations from a re-analysis of the deposited data

Results flagged for a closer look

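In 4 members the strain difference itself differed between neuronal and non-neuronal nuclei, by edgeR's interaction test with the library as a block, given as neuronal minus non-neuronal difference on the log2 scale. For Zfp976 it was 1.53 ± 0.21 (SE, adjusted p 0.00575), and the difference outside neurons, -0.48 ± 0.22, did not itself pass the strain test. For Zfp992 it was 3.26 ± 0.47 (adjusted p 0.00664), and for Zfp949 it was -0.74 ± 0.11 (adjusted p 0.00664), with DBA higher in both classes. Non-neuronal types were not alike for Zfp992. Astrocytes, oligodendrocytes and their precursors together had 27 and 17 counts in DBA and 1 and 0 in BL6. Microglia had 20 and 9 in DBA and 32 and 27 in BL6. For Zfp975 the interaction was 0.69 ± 0.15 (adjusted p 0.0394), and with DESeq2 this call was lost (adjusted p 0.43). The call of Zfp976 was lost without DBA library 2 (adjusted p 0.0844), that of Zfp992 without DBA library 3 (adjusted p 0.0623), and those of Zfp949 and Zfp975 without either of these libraries.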

How the results depend on the processing

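Fewer members than the 16 in the report were called by strain over all nuclei when any 1 library was left out. Calls over all genes also fell without DBA library 2, DBA library 3 or BL6 library 3, but rose without BL6 library 2. Replicate numbers did not pair the libraries: deviations of same-numbered libraries correlated at -0.429 in RNA and -0.081 in ATAC over 2 pairs. With the replicate block 8 members were called, and 459 of all 21161 genes. With the crossed replicate block, added after seeing the data, 26 members were called, and 2823 of all 21161 genes. Of other Zfp genes 14 were called, and 23 with every gene of the table, 5 to 14 with 1 library left out, 6 with the replicate block and 29 with the crossed block. Of the corepressor list 1 gene was called with every gene of the table and 1 with the crossed block. DESeq2 called 13 members in inhibitory nuclei, 59 member and type pairs, 13 members between excitatory and inhibitory nuclei and 9 peaks. With 1 library left out there were 6 to 13 calls in non-neuronal nuclei, 71 to 117 member and type pairs, 1 to 7 interactions and 7 to 20 peaks, and within 10 kb of gene ends 32 peaks were called. The other settings left these counts within 1.5 times, and none of the single genes named reversed. The causes were not tested. Genes with few counts, such as Zfp981, are limited by depth.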
